A study of Mus musculus with 11 samples.

Results

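Siglecs are cell surface receptors of the immunoglobulin superfamily that bind sialic acid, the sugar that caps many glycans of vertebrate cells. The genes described are 6 mouse Siglec receptors named for that function, Siglech, Siglec1, Siglece, Siglecf, Siglecg and Cd33, and all 6 were found among the 16894 genes of the deposited table by their Entrez identifiers. Their RNA was measured in 11 libraries of microglia, the resident macrophages of brain tissue. The libraries were 4 of transplanted microglia (TP), sorted by fluorescence 3 months after transplantation, 3 of primary microglia kept in culture (PMG), and 4 of sorted resident microglia (Res). Every library carries the genotype Cx3cr1-GFP, a green fluorescent reporter at the gene of the fractalkine receptor, which marks microglia and also other macrophages and monocytes. The labels attach 1 treatment text to all libraries: chow with 600 mg/kg PLX3397, which blocks the receptor Csf1r on which microglia depend, given in 3 depletion cycles before transplantation. They do not say whether mice that gave resident cells had been treated, where the transplanted cells came from, the ages of the mice, or whether replicates were separate animals or cultures. The p-values therefore measure only the spread between these libraries, which may be technical. The resident and cultured libraries served as controls, to ask whether transplanted microglia come to express the genes of naive ones.

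Most Siglecs of the Cd33-related branch carry an immunoreceptor tyrosine-based inhibitory motif (ITIM) in the cytoplasmic tail and recruit the phosphatases SHP-1 and SHP-2, encoded by Ptpn6 and Ptpn11, which dampen myeloid cell activation. Siglech lacks such a motif and signals through the adaptor DAP12, encoded by Tyrobp. In the mouse brain it is widely used as a marker that separates microglia from other macrophages. Siglec1, also called sialoadhesin or CD169, has a long extracellular part and no inhibitory motif, binds sialylated cells and particles, and is induced by type I interferon in macrophages. Siglece is an inhibitory receptor of mouse myeloid cells, Siglecf is best known from eosinophils and alveolar macrophages, and Siglecg from B cells. Cd33 is of interest in the brain because variants of the human gene are linked to Alzheimer's disease.

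In the annotation of GRCm38.p6, the build the submitters name, Siglecf (43351341 to 43359475, plus strand), Siglecg (43408192 to 43418349, plus strand), Cd33 (43527399 to 43537424, minus strand) and Siglece (43648882 to 43672044, minus strand) lie within 321 kb of chromosome 7. Siglech (55768154 to 55779448, plus strand) lies 12.1 Mb further along chromosome 7, and Siglec1 (131067801 to 131086778, minus strand) is on chromosome 2. RefSeq promoter windows of GRCm38.p6, each 250 bases before and 50 bases after an annotated start, were matched for 5 members; Siglec1 had no match. All 5 were lower in cultured cells than in resident cells, and this was known when the windows were read. Stretches of all but Siglecg are printed. PU.1, an ETS family transcription factor of macrophages, binds sites with the core GAGGAA, and this core was searched on both strands. All 5 members had at least 1 match in a window, and 31.3% of the 27025 genes with windows had one. The match nearest a start was that of Siglech, which begins 4 bases upstream of it. Siglece had 3 matches within 87 bases of the start of its window. The starts used for Siglech, Siglecg, Siglece and Cd33 lie inside the gene spans given above and are thus not their outermost annotated ends. The match of Siglech, upstream of the start of its window, therefore lies within its gene span. The stretches are printed 5′ to 3′ on the gene's strand, with the core in capitals, which reads TTCCTC where it lies on the other strand.
Siglech, chr7:55768044-55768193: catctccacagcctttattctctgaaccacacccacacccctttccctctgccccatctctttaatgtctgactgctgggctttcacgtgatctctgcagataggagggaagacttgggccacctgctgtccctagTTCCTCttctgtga
Siglece, chr7:43660157-43660261: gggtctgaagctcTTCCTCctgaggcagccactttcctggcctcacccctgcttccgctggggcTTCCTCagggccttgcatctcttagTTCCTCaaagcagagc

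Siglecf and Cd33, which lie in the same cluster on opposite strands, shared the longest run of identical bases between the windows of any pair of members, at 16 bases. This stretch was chosen by comparing the windows and not from a known motif. It begins 27 bases upstream of the start of Siglecf and 157 bases upstream of that of Cd33. Searched on both strands, it occurred in 2 of 32851 windows, those of these 2 genes. It is set in capitals below to show what the pair has in common.
Siglecf, chr7:43351294-43351350: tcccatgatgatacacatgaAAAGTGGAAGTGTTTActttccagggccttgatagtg
Cd33, chr7:43533239-43533348: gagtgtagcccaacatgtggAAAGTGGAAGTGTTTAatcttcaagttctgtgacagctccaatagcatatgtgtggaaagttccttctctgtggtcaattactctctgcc
No window of the 5 members held the interferon-stimulated response element core or the ETS-IRF composite element on either strand, which are in the windows of 3.99% and 0.847% of genes. A match describes these letters and does not show that a factor binds.

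Total expected read counts were 18692721 to 19761208 in transplanted, 26705034 to 28219696 in cultured and 19055655 to 19965631 in resident libraries. Levels below are CPM (read counts scaled to a common library total) after scaling for library composition, and 3 counts, the most that a reading of 0 leaves possible by counting error alone, corresponded to 0.135 to 0.148 CPM. Between genes, levels are compared in the authors' TPM (transcript abundance, which takes gene length into account). The 7 microglia markers checked (Tmem119, P2ry12, Sall1, Cx3cr1, Fcrls, Olfml3 and Gpr34) summed to 20975 to 26206 CPM in transplanted libraries, 478 to 607 CPM in cultured libraries and 23434 to 26973 CPM in resident libraries. All 7 were lower in cultured than in resident cells, so the cultured libraries carry their label with low levels of the genes that define microglia in the brain. In these bulk libraries, fewer cells of a type and less RNA per cell cannot be told apart.

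**Figure D1:**
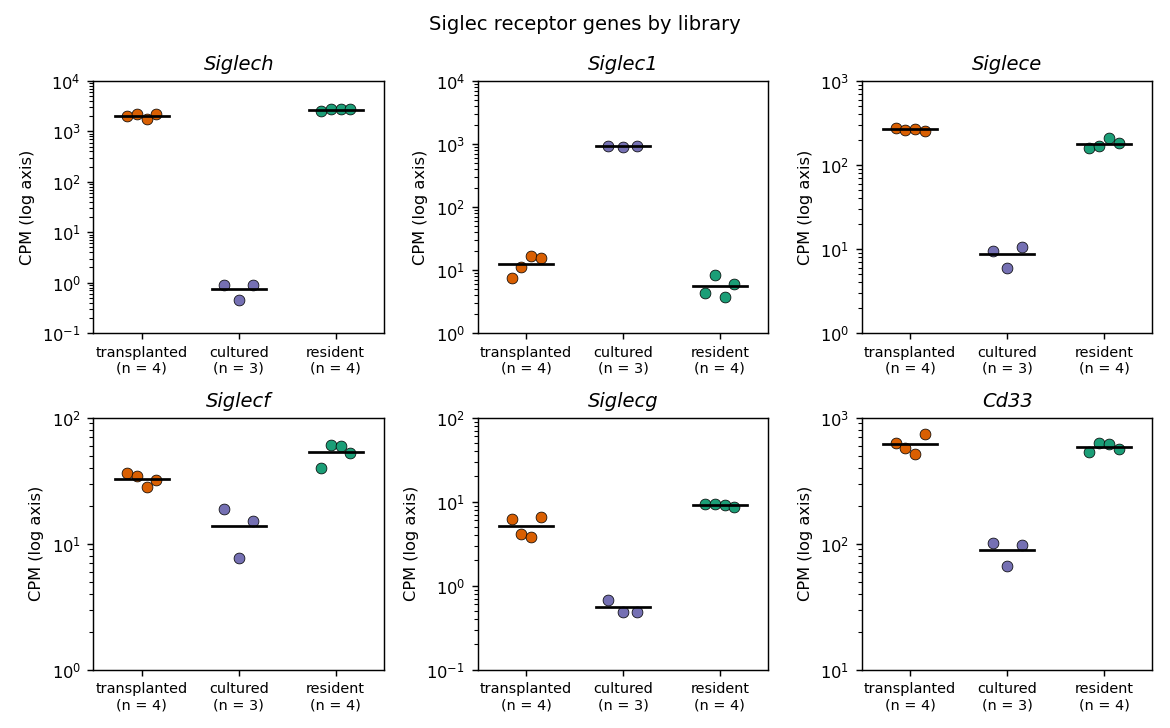
Level of each Siglec gene in every library, in CPM on a log axis, for transplanted, cultured and resident microglia. Points are libraries and the line is the group mean; Siglec1 is the 1 gene whose cultured libraries (896 to 937 CPM) lie above all others.

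Between transplanted and resident microglia the Siglecs differed in both directions, by at most 2.27-fold. Siglech, Siglecf and Siglecg were lower, Siglece and Siglec1 were higher, and Cd33 was not called. Thus 5 of the 6 members were called by edgeR's quasi-likelihood test at a Benjamini-Hochberg adjusted p under 0.05, where 13% of the 11929 genes tested were called. In each direction 2 members were called higher, with a background of 7.17%, and 3 lower, with a background of 5.86%. The median log2 fold change of the 6 members was -0.16, against 0.02 over all genes tested. In 4 members the groups did not overlap, which held for 19.7% of genes. Errors given after log2 fold changes are standard errors, and every adjusted p comes from this test unless another is named.

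Siglech had 2050.4, 2246, 1729.7 and 2189 CPM in the 4 transplanted libraries, against 2517, 2797, 2825 and 2738 CPM in the 4 resident libraries. Each transplanted library was below each resident one. The log2 fold change was -0.40 ± 0.09 (adjusted p = 0.0148), so that the mean in transplanted cells was 75.5% of the resident mean. The call was lost when all 11 libraries shared 1 fit (-0.41, adjusted p = 0.0874) and with unfiltered TPM (-0.40, adjusted p = 0.0591). Among the microglia markers above, Sall1 was lower too (-0.40 ± 0.10, adjusted p = 0.0271) and Olfml3 was higher (0.40 ± 0.08, adjusted p = 0.011). The others were not called between these groups.

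Siglece, an inhibitory receptor, was called higher in transplanted cells, at 275, 261, 269 and 256 CPM, against 160, 168, 208 and 185 CPM in resident cells. The groups were separate, and the log2 fold change of 0.56 ± 0.09 (adjusted p = 0.00179) was called in every alternative run. Siglecf, in turn, was at 36.4, 34.4, 28.1 and 32.3 CPM in transplanted libraries, against 40.2, 60.5, 59.4 and 52.4 CPM in resident libraries. Its log2 fold change was -0.69 ± 0.13 (adjusted p = 0.006), and resident replicate 1 was the resident library nearest the transplanted range. The call of Siglecf was lost when all libraries shared 1 fit (-0.70, adjusted p = 0.0795). Siglecg was scarce, at 6.17, 4.12, 3.81 and 6.51 CPM in transplanted cells, against 9.43, 9.37, 9.14 and 8.67 CPM in resident cells. It was lower in all 4 transplanted libraries, at -0.82 ± 0.18 (adjusted p = 0.0131).

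Cd33 was the second most abundant member in both groups and overlapped between them. It had 626, 576, 518 and 748 CPM in transplanted libraries, against 533, 626, 622 and 565 CPM in resident libraries. The log2 fold change was 0.08 ± 0.11 with a 95% interval of -0.17 to 0.33 (adjusted p = 0.686), and it was -0.027 (adjusted p = 0.894) without transplanted replicate 4, the highest library. Among transplanted libraries, replicate 3 was the lowest for Siglech, Siglecf, Siglecg and Cd33 and the highest for Siglec1.

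Siglec1, the sialoadhesin gene, was low in both sorted groups and differed most in size. It had 7.53, 11.3, 16.5 and 15.3 CPM in transplanted libraries, against 4.38, 8.2, 3.74 and 6.07 CPM in resident libraries. Transplanted replicate 1 lay below resident replicate 2, so the groups overlapped by this pair of libraries. The log2 fold change was 1.18 ± 0.28 (adjusted p = 0.0212), a 2.27-fold higher level. The call did not hold without resident replicate 1 (adjusted p = 0.0643), 3 (0.0642) or 4 (0.0527), or without transplanted replicate 3 (0.0582) or 4 (0.054), nor with unfiltered TPM (0.0573). The log2 fold change was 1.01 to 1.21 in these 5 fits on fewer libraries, and 0.87 with unfiltered TPM.

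Other genes moved with Siglec1 in these libraries. Interferon response genes summed to 344, 392, 458 and 459 CPM in transplanted libraries, against 238, 261, 238 and 348 CPM in resident libraries, over the 13 of 14 listed genes in the table. Of the 12 of these genes tested, 7 were higher in transplanted cells and none was lower, with backgrounds of 7.17% and 5.86%. Their median log2 fold change was 0.93, against 0.02 over all genes. Rsad2, an antiviral enzyme gene, stood at 1.61 ± 0.40 (adjusted p = 0.0253) and Oasl2, an oligoadenylate synthetase-like gene, at 1.35 ± 0.37 (adjusted p = 0.0364). The number called rested on single libraries: it was 11 without resident replicate 4, 2 without resident replicate 2 or transplanted replicate 3 or 4, and 1 without resident replicate 1 or 3. The call of Rsad2 was lost without resident replicate 1, 2 or 3 or transplanted replicate 2 or 4 (adjusted p = 0.0512 to 0.0813), and that of Oasl2 without resident replicate 1, 2 or 3 or transplanted replicate 3 or 4 (adjusted p = 0.0855 to 0.107). The part of interferon response genes in the level of Siglec1 was not tested.

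Border-associated macrophages, which line the vessels and membranes of the brain and express Siglec1, were checked next. Their 8 markers (Mrc1, Pf4, Cbr2, Lyve1, Cd163, F13a1, Ms4a7 and Cd209f) summed to 29.8, 24.3, 22.5 and 49.4 CPM in transplanted libraries, against 66.7, 121, 57.4 and 75.5 CPM in resident libraries. Of the 8, 7 were lower in transplanted cells and none was called higher, with backgrounds of 5.86% and 7.17%. The eighth, Ms4a7, had 14.8, 1.58, 7.34 and 24.2 CPM in transplanted and 2.62 to 5.78 CPM in resident libraries and was not called (1.76 ± 0.62, adjusted p = 0.0954). Cd209f had 0 counts in every transplanted library, and Cd163 had 0, 2, 2 and 0 counts, against 107, 181, 87 and 140 counts in resident libraries. Resident replicate 2 was the highest resident library both for these markers and for Siglec1. The part of such cells in the resident level of Siglec1 was not tested.

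**Figure D2:**
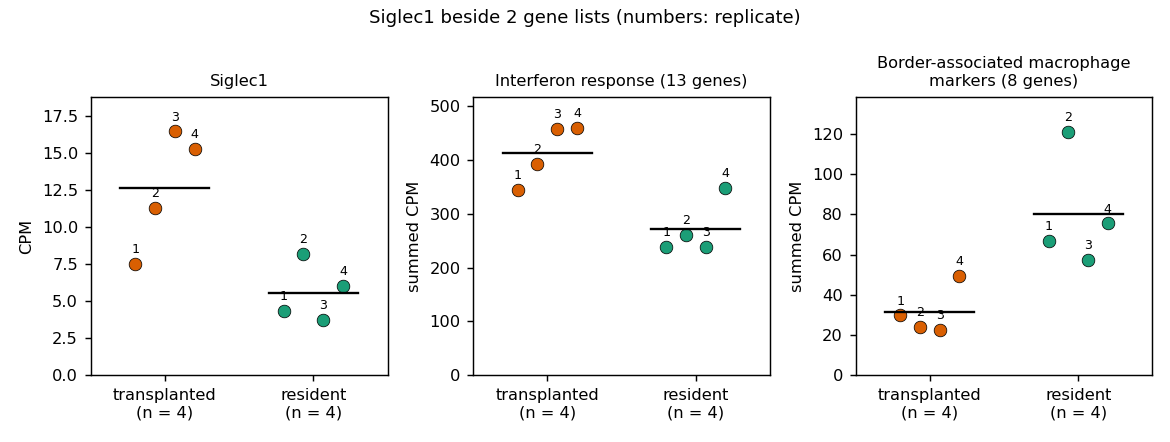
Siglec1 in CPM (left), the summed CPM of 13 interferon response genes (middle) and of 8 border-associated macrophage markers (right) in the 4 transplanted and 4 resident libraries. Points are libraries labelled by replicate number and lines are means; the transplanted libraries lie high for Siglec1 and the interferon genes and low for the summed macrophage markers, which reach 49.4 CPM in transplanted and start at 57.4 CPM in resident libraries.

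Markers of the other cell types known for a Siglec were read in the sorted libraries. Of the eosinophil markers, 4 of 5 were in the table and summed to 0.589 to 1.69 CPM in transplanted and 0.993 to 1.99 CPM in resident libraries, with Epx at 0 in all transplanted libraries. Of 5 B cell markers, 3 were in the table. Ms4a1 had 0 to 1 counts in each of the sorted libraries. Cd79b, a chain of the B cell receptor, was the exception, at 0.364 ± 0.125 CPM in transplanted and 23.1 ± 3.94 CPM in resident cells (SD, n = 4 each). Plasmacytoid dendritic cells also express Siglech in mice. Of 6 of their markers 5 were in the table, and Ly6d had 0 to 1 counts in every sorted library. Pacsin1, another of them, had 19 to 22 counts in transplanted and 64 to 125 counts in resident libraries. It was lower in transplanted cells like Siglech (-2.13 ± 0.25, adjusted p = 0.000368). The other tested markers, Ccr9 (0.13, adjusted p = 0.802), Cox6a2 (0.13, adjusted p = 0.895) and Tcf4 (-0.14, adjusted p = 0.348), were not called. Tcf4, which microglia also express, made up most of their sum of 180 to 239 CPM in transplanted and 227 to 237 CPM in resident libraries. The part of such cells in the level of Siglech was not tested.

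Cultured microglia had a different Siglec repertoire. Siglech was almost absent and Siglec1 abundant. Between cultured and resident cells 6 of 6 members were called, 1 higher and 5 lower, and the groups did not overlap in any of the 6. Calls were common in this comparison: 75.1% of 12406 genes were called, 37.9% higher and 37.2% lower, and 75.8% did not overlap, so the count of calls says little about the members. The sizes were large. The median log2 fold change of the members was -3.36, against -0.02 over all genes.

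Siglech had 0.912, 0.443 and 0.884 CPM in cultured libraries, from 19, 9 and 18 counts, against 2517 to 2825 CPM in resident libraries. The log2 fold change was -11.80 ± 0.27 (adjusted p = 5.36e-09), which is 3563-fold lower. Siglec1 went the other way, at 937, 896 and 934 CPM in cultured libraries against 3.74 to 8.2 CPM in resident libraries. It was 167-fold higher (7.38 ± 0.28, adjusted p = 4.05e-08). Across all runs, those on TPM included, its log2 fold change ranged from 5.62 to 7.60.

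The other members were lower in cultured cells by different amounts. Siglece had 9.41, 6 and 10.6 CPM in cultured cells, a log2 fold change of -4.36 ± 0.22 (adjusted p = 2.03e-07). Siglecg had 0.672, 0.492 and 0.491 CPM, from 14, 10 and 10 counts (-4.02 ± 0.23, adjusted p = 5.28e-07). Cd33 had 102, 67.1 and 96.9 CPM and so remained well detected (-2.71 ± 0.17, adjusted p = 8.93e-07). Siglecf, at 18.8, 7.77 and 15.2 CPM, differed least (-1.91 ± 0.28, adjusted p = 0.000227). Cultured replicate 2 was the lowest cultured library for 5 of the 6 members.

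Transplanted and cultured cells were set against each other last, with the same cultured libraries as above. Again 6 of 6 members were called, 5 higher and 1 lower in transplanted cells, and none overlapped. Of 12284 genes, 72.4% were called, 36.9% higher and 35.5% lower, and 73.3% did not overlap. The members had a median of 3.01 on the log2 scale, all genes one of 0.05. Siglech was 2736-fold higher in transplanted cells (11.42 ± 0.28, adjusted p = 2.44e-09) and Siglece 30.7-fold higher (4.94 ± 0.21, adjusted p = 4.4e-08). Siglecg stood at 3.21 ± 0.36 (adjusted p = 2.61e-05), Cd33 at 2.81 ± 0.20 (adjusted p = 1.04e-06) and Siglecf at 1.24 ± 0.27 (adjusted p = 0.00198). Siglec1 was 72.5-fold lower in transplanted cells (-6.18 ± 0.26, adjusted p = 4.45e-08), with a range of -6.35 to -4.75 across all runs, those on TPM included.

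**Figure D3:**
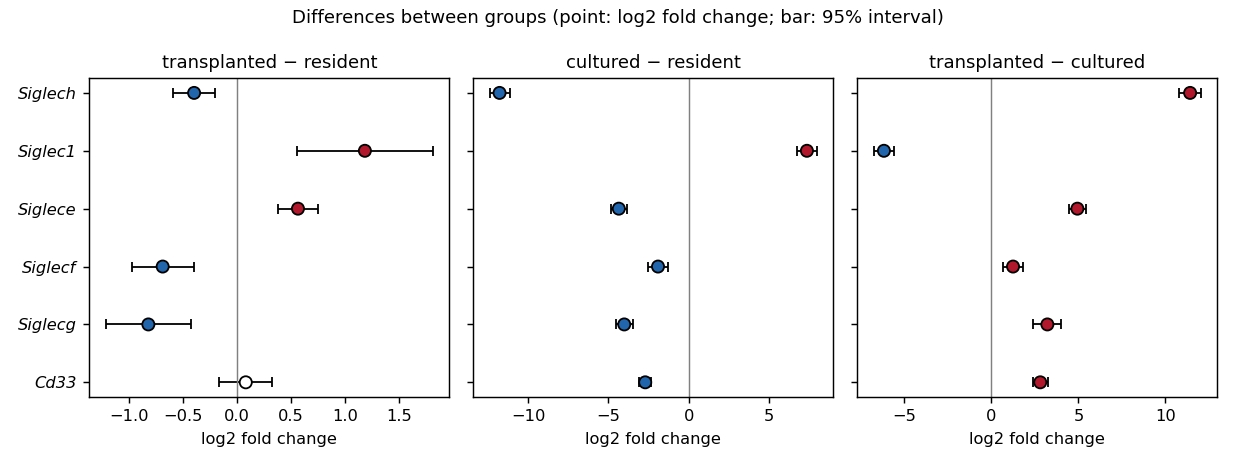
Log2 fold changes of the 6 Siglec genes in the 3 comparisons, each with its 95% interval; the horizontal scale differs between panels. Red points were called higher and blue lower at an adjusted p under 0.05, and the open point was not called (Cd33 between transplanted and resident cells, 0.08).

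On the per-length TPM scale, Siglech led in both sorted groups. In transplanted cells Siglech averaged 2844 ± 309 TPM (SD, n = 4), Cd33 577 ± 91.4 TPM, Siglece 327 ± 16.1 TPM and Siglecf 30.9 ± 3.05 TPM, with no overlap between neighbours in this order. Siglec1 (4.11 ± 1.31 TPM) and Siglecg (4 ± 1.1 TPM) came last there and overlapped. In cultured cells (SD, n = 3) Siglec1 led at 133 ± 13.3 TPM, ahead of Cd33 at 39 ± 9.72 TPM. Siglecf (6.14 ± 2.65 TPM) overlapped with Siglece (4.67 ± 1.91 TPM), as did Siglech (0.48 ± 0.211 TPM) with Siglecg (0.233 ± 0.0252 TPM). In resident cells the order was Siglech (3736 ± 216 TPM, SD, n = 4), Cd33 (536 ± 43.1 TPM), Siglece (216 ± 24.3 TPM), Siglecf (49.2 ± 8.66 TPM), Siglecg (7.06 ± 0.354 TPM) and Siglec1 (1.77 ± 0.665 TPM), and no neighbours overlapped.

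The summed level of the 6 members was 3787 ± 370 TPM in transplanted cells (SD, n = 4), 184 ± 27.4 TPM in cultured cells (SD, n = 3) and 4547 ± 281 TPM in resident cells (SD, n = 4). Siglech made up 73.6% to 77.5% of this sum in transplanted, 0.171% to 0.336% in cultured and 81.6% to 82.6% in resident libraries. Siglec1 made up 0.066% to 0.161%, 70% to 77.7% and 0.0238% to 0.0558% in the same order of groups. Cd33 held 13.4% to 16.7% in transplanted, 18.2% to 22.7% in cultured and 11.5% to 12.1% in resident libraries. Siglece held 7.45% to 10.3% in transplanted and 4.26% to 5.21% in resident libraries. The shares of transplanted and resident libraries did not overlap for 5 of the 6 members, the exception being Siglecf. The shares of a library are parts of the same sum, so a lower level of Siglech alone raises those of the others. They are therefore not separate results. The share of Cd33 was thus higher in each transplanted library although its own level was not called.

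**Figure D4:**
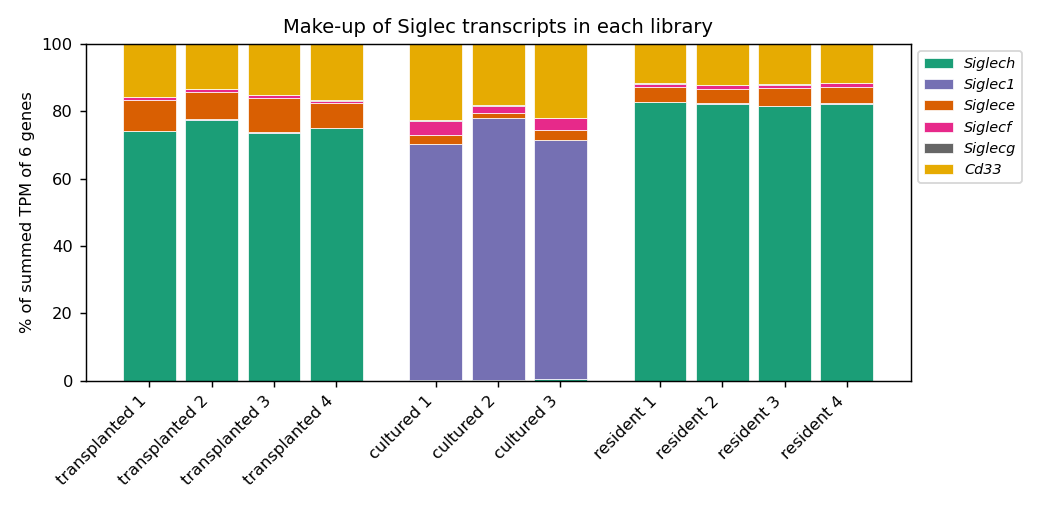
Share of each Siglec gene in the summed TPM of the 6 genes, in percent, for each transplanted, cultured and resident library. Siglech fills 73.6% to 77.5% of the bars of transplanted libraries and 81.6% to 82.6% of those of resident libraries, and Siglec1 70% to 77.7% of those of cultured libraries.

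The family has 3 further genes outside this group. Cd22, an inhibitory Siglec of B cells, had 28, 31.6, 17 and 26.7 CPM in transplanted libraries, 28.1, 29.8 and 34.7 CPM in cultured libraries and 17.6, 16.6, 17.7 and 20.6 CPM in resident libraries. Between transplanted and resident cells it was not called (0.52 ± 0.17, adjusted p = 0.0719), but it was without transplanted replicate 3 (0.66, adjusted p = 0.00287) and with DESeq2 (0.50, adjusted p = 0.0303). It was higher in cultured than in resident cells by 0.79 ± 0.13 (adjusted p = 0.000438). In TPM it stood at -0.28 without a call, and there the median of all genes was shifted to -0.95, and to 0.98 between transplanted and cultured cells. Mag, the myelin-associated glycoprotein of oligodendrocytes, had 39.5 to 45.9 CPM in transplanted libraries, 9.92 to 11.7 CPM in cultured libraries and 38.8 to 42.7 CPM in resident libraries. It was lower in cultured than in resident cells (-1.85 ± 0.12, adjusted p = 9.29e-07) and was not called between transplanted and resident cells (0.10 ± 0.07, 95% interval -0.06 to 0.26, adjusted p = 0.413). Of other oligodendrocyte genes, Mbp, which encodes myelin basic protein, had 40.8 to 46.2 CPM in transplanted and 37.8 to 42.9 CPM in resident libraries, and Mog had 0 to 3 and 1 to 7 counts per library in the same groups. The part of oligodendrocyte RNA in the level of Mag was not tested. Mag and Cd22 lie 18.8 kb apart on the same strand of chromosome 7. Siglec15 had 0 counts in the transplanted libraries, 6 counts in 1 cultured library and 1 count in 1 resident library, and was not tested.

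The genes through which Siglecs signal were called between transplanted and resident cells about as seldom as all genes (13% called). Of 11 partners, 1 was higher, with a background of 7.17%, and none lower, with one of 5.86% (median 0.05). That gene was the Src family kinase Fgr (1.02 ± 0.25, adjusted p = 0.0246), whose call was lost without resident replicate 1, 2 or 4 or transplanted replicate 3 or 4 (adjusted p = 0.0581 to 0.0711) and with unfiltered TPM (0.0539). Tyrobp, the adaptor of Siglech, had 842 ± 60.7 CPM in transplanted and 894 ± 48.6 CPM in resident cells (SD, n = 4 each), a difference of -0.08 ± 0.07 with a 95% interval of -0.25 to 0.09 (adjusted p = 0.532). The phosphatase genes Ptpn6 (0.15 ± 0.09, interval -0.05 to 0.35, adjusted p = 0.326) and Ptpn11 (-0.13 ± 0.13, interval -0.42 to 0.16, adjusted p = 0.567) were not called either. The feedback inhibitor gene Socs3 was not called but had a wide interval (-0.64 ± 0.57, interval -1.90 to 0.63, adjusted p = 0.514). So had the adaptor gene Hcst (0.14 ± 0.25, interval -0.42 to 0.70, adjusted p = 0.764).

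In cultured cells Tyrobp was higher than in resident cells by 1.52 ± 0.14 (adjusted p = 8.2e-06), at 2535 ± 499 CPM (SD, n = 3). In TPM its difference was 0.37 (limma, adjusted p = 0.0106). Of the 11 partners, 5 were higher and 4 lower, close to the share of genes called in this comparison (75.1%). On the TPM scale 3 were higher and 6 lower, where the median log2 fold change of all genes was -0.95. Fgr (2.15 ± 0.25, adjusted p = 4.79e-05) and the feedback inhibitor gene Socs3 (1.95 ± 0.58, adjusted p = 0.0127) were the highest. Socs3 was not called on the TPM scale (1.24, adjusted p = 0.0566). Inpp5d, the lipid phosphatase SHIP-1, and the Src family kinase Lyn were the lowest, at -2.43 ± 0.18 (adjusted p = 2.44e-06) and -1.15 ± 0.10 (adjusted p = 5.49e-06). Ptpn11 was higher by 1.31 ± 0.20 (adjusted p = 0.000285; 0.14 and not called in TPM), and Ptpn6 was not called (-0.25 ± 0.17, adjusted p = 0.212). Between transplanted and cultured cells 4 partners were higher and 5 lower (6 and 3 on the TPM scale), with edgeR backgrounds of 36.9% and 35.5%. The median of all genes in TPM was 0.98 there. Inpp5d (2.45 ± 0.18, adjusted p = 1.38e-06) and Lyn (1.28 ± 0.12, adjusted p = 7.16e-06) led above. Socs3 (-2.57 ± 0.35, adjusted p = 9.67e-05) and Hcst (-1.77 ± 0.28, adjusted p = 0.000244) led below. Tyrobp stood at -1.59 ± 0.15 there (adjusted p = 7.41e-06; -0.40 in TPM) and Ptpn11 at -1.42 ± 0.24 (adjusted p = 0.000383; -0.25 and not called in TPM), and Ptpn6 was not called (0.41 ± 0.18, adjusted p = 0.0656).

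Receptors with inhibitory motifs outside the family were read next, between transplanted and resident cells. Among 14 such genes transplanted cells had 6 higher and 1 lower (median 0.59), with backgrounds of 7.17% and 5.86%. The receptor gene Cd300lf had 19 ± 10.8 CPM in transplanted and 2.36 ± 1.29 CPM in resident cells (SD, n = 4 each; 3.01 ± 0.47, adjusted p = 0.00221), and Cd72 stood at 1.85 ± 0.23 (adjusted p = 0.000536). Pecam1, an adhesion receptor also found on endothelium, was the 1 lower gene, at 10.5 ± 2.22 CPM in transplanted and 47.1 ± 7.61 CPM in resident cells (-2.16 ± 0.16, adjusted p = 2.31e-05). Between cultured and resident cells 10 were higher and 3 lower (7 and 5 on the TPM scale), with edgeR backgrounds of 37.9% and 37.2%. All genes had a median of -0.95 on the TPM scale. Cd300lf stood at 7.16 ± 0.36 (adjusted p = 1.99e-07) and Lilrb4a at 7.04 ± 0.17 (adjusted p = 6.03e-09). The collagen receptor gene Lair1 was at -3.58 ± 0.12 (adjusted p = 2.44e-08) and Pecam1 at -3.09 ± 0.25 (adjusted p = 4.26e-06). The median of the 14 genes was 1.85, opposite in sign to that of the Siglecs. Between transplanted and cultured cells 3 were higher and 8 lower (6 and 6 on the TPM scale), with edgeR backgrounds of 36.9% and 35.5%. All genes had a median of 0.98 on the TPM scale. Lair1 (3.57 ± 0.15, adjusted p = 4.68e-08) and the receptor gene of the signal CD47, Sirpa (1.41 ± 0.19, adjusted p = 9.79e-05), were the highest, and Clec12a (-5.43 ± 0.66, adjusted p = 4.35e-05) and Lilrb4a (-5.41 ± 0.40, adjusted p = 1.46e-06) the lowest.

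Siglecs bind sialic acid on the same cell or on its neighbours, so the genes that make, attach and remove it were read in the same libraries. None of 7 sialic acid synthesis genes was called between transplanted and resident cells with edgeR or DESeq2, and 1 had an unadjusted p under 0.05 with each. Of 20 sialyltransferases, which attach the sugar to glycans, 18 were in the table and 12 were tested. Transplanted cells had 2 of these 12 called higher and 1 called lower, against 7.17% and 5.86% of all genes tested. St8sia6 had 27.4 ± 6.97 CPM in transplanted and 8.45 ± 2.82 CPM in resident cells (SD, n = 4 each; 1.70 ± 0.25, adjusted p = 0.0014), and St8sia4, which makes polysialic acid, stood at 0.63 ± 0.11 (adjusted p = 0.00385). St3gal6 had 345 ± 44.7 CPM in transplanted and 437 ± 11.1 CPM in resident cells (-0.34 ± 0.10, adjusted p = 0.0419). Its call was lost without any 1 of the resident libraries or transplanted replicate 1 or 4 (adjusted p = 0.0587 to 0.0834) and when all libraries shared 1 fit (0.446). Among 6 tested genes of sialic acid removal, transplanted cells had 2 called higher and 1 called lower, against the same shares of all genes. The sialic acid lyase gene Npl stood at -1.05 ± 0.10 (adjusted p = 0.000107) and the sialate esterase gene Siae at 0.33 ± 0.07 (adjusted p = 0.0122, and 0.0514 without resident replicate 3). The call of the lysosomal sialidase Neu1 (0.24 ± 0.07, adjusted p = 0.0489) was lost without any 1 library other than transplanted replicate 3 (adjusted p = 0.0758 to 0.171).

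Between cultured and resident cells St3gal6 followed the same direction as Siglech: it had 2.21 ± 1.25 CPM in cultured cells (SD, n = 3) and was lower by -7.61 ± 0.38 on the log2 scale (adjusted p = 2.05e-07). St8sia6 was lower too (-4.28 ± 0.69, adjusted p = 0.000363), while St3gal1 (2.98 ± 0.31, adjusted p = 2.29e-05) and St8sia4 (2.31 ± 0.16, adjusted p = 1.38e-06) were higher. Over all genes, 37.9% were called higher and 37.2% lower in this comparison. In all, 5 sialyltransferases were higher and 6 lower of 12 (4 and 8 on the TPM scale). Of the 7 synthesis genes, 2 were higher and 4 lower (2 and 5 on the TPM scale). Cmas, which activates the sugar for transfer (1.76 ± 0.26, adjusted p = 0.000235) and the synthase gene Nans (1.56 ± 0.14, adjusted p = 9.28e-06) stood above, and Gne (-1.90 ± 0.18, adjusted p = 1.25e-05), which encodes the first enzyme of the pathway, and the hydroxylase gene Cmah (-1.17 ± 0.15, adjusted p = 9.83e-05) below. Of the 6 removal genes, 4 were higher and 1 lower, but none was higher and 3 were lower on the TPM scale. All genes had a median of -0.95 on that scale, so its counts of lower genes say little about these lists. The lysosomal sialic acid exporter gene Slc17a5 stood at 1.40 ± 0.13 (adjusted p = 1.2e-05; 0.35 and not called on the TPM scale), Neu1 at 1.00 ± 0.11 (adjusted p = 3.42e-05; -0.10 and not called on the TPM scale) and the membrane sialidase Neu3 at -2.41 ± 0.29 (adjusted p = 5.63e-05).

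Against cultured cells, transplanted cells had St3gal6 higher by 7.29 ± 0.37 (adjusted p = 1.39e-07) and St8sia6 by 6.0 ± 0.60 (adjusted p = 1.19e-05). St3gal1 (-2.14 ± 0.22, adjusted p = 1.53e-05) and St8sia4 (-1.67 ± 0.18, adjusted p = 1.64e-05) were lower. Over all genes, 36.9% were called higher and 35.5% lower in this comparison. Of the synthesis genes 4 were higher and 2 lower, with Gne at 2.03 ± 0.20 (adjusted p = 8.72e-06), Cmah at 1.39 ± 0.16 (adjusted p = 3.59e-05), Cmas at -1.86 ± 0.27 (adjusted p = 0.000162) and Nans at -1.72 ± 0.15 (adjusted p = 4.84e-06). Of the removal genes 1 was higher, Neu3 (2.57 ± 0.30, adjusted p = 3.36e-05), and 4 were lower. On the TPM scale 3 were higher and none lower, and Npl (-1.39 ± 0.17, adjusted p = 3.99e-05) and Slc17a5 (-1.12 ± 0.15, adjusted p = 9.4e-05) were not called there (-0.26 and -0.09). All genes had a median of 0.98 on that scale.

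In culture the interferon response genes summed to 895 to 1135 CPM, against 238 to 348 CPM in resident libraries. Most of the cultured sum came from Ifitm3 (503 to 685 CPM, resident 5.4 to 14.8 CPM) and Bst2 (173 to 259 CPM, resident 51.7 to 63.6 CPM). Of the 12 tested, 6 were higher, with a background of 37.9%, and 3 lower, with one of 37.2%, in cultured than in resident cells (median 0.63). On the TPM scale 3 were higher and 4 lower (median -0.29, against -0.95 over all genes). Ifitm3 stood at 6.11 ± 0.38 (adjusted p = 7.45e-07) and Rsad2 at 3.09 ± 0.44 (adjusted p = 0.000163), while Stat2 (-1.53 ± 0.25, adjusted p = 0.00037) and Usp18 (-1.35 ± 0.41, adjusted p = 0.0144) were lower. Between transplanted and cultured cells 6 were higher and 3 lower (8 and 1 on the TPM scale), with edgeR backgrounds of 36.9% and 35.5%. All genes had a median of 0.98 on the TPM scale. Usp18 stood at 2.48 ± 0.29 (adjusted p = 3.72e-05) and Stat2 at 2.10 ± 0.25 (adjusted p = 4.45e-05). Ifitm3 was at -5.29 ± 0.29 (adjusted p = 2.2e-07) and Rsad2 at -1.46 ± 0.23 (adjusted p = 0.000225, with -0.30 and no call on the TPM scale). The 8 border-associated macrophage markers summed to 2954 to 3243 CPM in cultured libraries, where Cd209f had 0 counts, and the 6 monocyte markers to 178 to 257 CPM, against 6.9 to 11.3 CPM in resident libraries. Within these lists Pf4 (8.03 ± 0.34, adjusted p = 8.24e-08) and F13a1 (6.01 ± 0.40, adjusted p = 1.26e-06) were higher in cultured cells, like Siglec1. Lyve1 (-3.07 ± 0.34, adjusted p = 3e-05), Cd163 (-2.68 ± 0.45, adjusted p = 0.00049), Cd209f and the monocyte marker Plac8 (-3.69 ± 0.88, adjusted p = 0.00391) were lower. The part of these cell types in the level of Siglec1 was not tested.

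For each member, the genes with the most similar profile were taken as those with the smallest root mean square (RMS) difference of log2 CPM over the 11 libraries, after subtracting each gene's mean, among 12589 other genes. Since the libraries fall into 3 groups, these profiles are mostly the group differences. Siglech was nearest to Slc2a5, a fructose transporter gene used as a microglia marker (RMS 0.45), then Ecscr (0.51) and Asb2 (0.66). Siglec1 was nearest to Lilr4b (0.38), the lysozyme gene Lyz2 (0.39) and Fxyd5 (0.44). Lilr4b is a close paralogue of Lilrb4a, so its reads may have been split between copies. The nearest to Siglece were Ggt5 (0.20), Olfml2b (0.24) and Arhgap27 (0.26), and to Siglecf Rbbp9, Sesn1 and Nbeal2 (0.22 each). Siglecg was nearest to Arhgef10l (0.23), Armc3 (0.26) and Hdac11 (0.28). Cd33 had the closest neighbours, Fan1 (0.11), Pacc1 (0.12) and Tmem186 (0.12).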

How the data were processed

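Libraries were prepared by a Smart-Seq method from 1 ng of TRIzol-extracted RNA, per the labels' protocols. The submitters' processing notes name HISAT, Bowtie2 and the build GRCm38.p6. Tool versions, the counter, the annotation and the strand were not stated. The deposited table holds expected counts estimated by the authors, unscaled, with 81.5% to 84.9% of values whole. It also holds TPM and FPKM, which the authors scaled for gene length and library, per the file headers. Symbols came from RefSeq (GRCm38.p6) for 16845 of 16894 identifiers, and 49 had none.

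Expected counts were rounded. The 3 comparisons were each fitted on their own libraries, using edgeR 4.0.16 and R 4.3.3 (TMM, edgeR's expression filter, quasi-likelihood test, Benjamini-Hochberg adjustment over all genes tested). CPM used TMM factors over all 11 libraries. Intervals are edgeR's, at 95%, and floors of 3 counts cover counting error only. The fits were checked on simulated counts. Alternatives were other size factors, DESeq2 1.42.0, no filter, 1 fit of all libraries, a replicate block, limma 3.58.1 on log2(TPM + 1) or log2(TPM + 0.1) for genes with at least 1 TPM in as many libraries as the smaller group, and leaving out each library. TPM changes are on the log2(TPM + 1) scale, which understates those of low genes. Backgrounds are shares of genes called by edgeR, and none is given for calls on the TPM scale.

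Libraries were grouped by title. No pair of libraries agreed within sampling noise (chi-square per degree of freedom at least 8.16). Resident replicate 1 stood at 43.3 to 47.3 with the other resident libraries, which stood at 8.16 to 8.88 with each other. It was the lowest resident library for Siglech, Siglece, Siglecf and Cd33. Cultured replicate 2 stood at 112 and 116 with the other cultured libraries, against 24 between those. Replicate numbers did not pair the libraries. Without stated strand, reads of overlapping antisense genes cannot be told apart, and near-identical paralogues may share reads. The members, lists and tests were chosen with earlier results of these data known. Named from each companion list were up to 2 called genes with the highest and 2 with the lowest fold change per comparison, beside Tyrobp, Ptpn6 and Ptpn11. Marker genes were named from their lists after their values were seen. Some genes of the companion and marker lists are not reported here and were left out of the lists' counts and sums.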

Additional observations from a re-analysis of the deposited data

Results flagged for a closer look

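In groups of 4 libraries, a highest or lowest library far from the other 3 was looked for in 76 groups of named genes, and 4 stood out, where chance gives about 1 in 20. None was a Siglec. The feedback inhibitor gene Socs3 was at 84.6 CPM in transplanted replicate 3, against 28.6 to 35.5 CPM in the other transplanted libraries, and at 176.3 CPM in resident replicate 1, against 32.5 to 38.5 CPM in the other resident libraries. In resident replicate 4, Rsad2 was at 3.97 CPM, against 0.902 to 1.4 CPM, and Oasl2 at 13 CPM, against 4.38 to 5.17 CPM in the other resident libraries. Transplanted replicate 3 was also the library with the highest Siglec1 and the lowest Siglech of its group.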

How the results depend on the processing

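Across the alternatives, the number of the 6 Siglecs called differed from the main value by over 1.5 times in 2 counts and not in the other 44, both between transplanted and resident cells: 3 were called (2 higher, 1 lower) when all 11 libraries shared 1 fit, and 3 (1 higher, 2 lower) with unfiltered TPM. Leaving out 1 library gave 4 to 5 calls there, and 6 in the other 2 comparisons. Replicate numbers did not pair the libraries (r from -0.07 to 0.05 for same-numbered libraries), and the replicate block gave 5, 6 and 6 calls. Of the alternative log2 fold changes of the 6 genes, Cd22 and Mag, 350 kept direction and call, 9 lost the call, 2 gained it and 7 changed sign: Cd33 between transplanted and resident cells (-0.027 to 0.14 over the fits without 1 library, the lowest without transplanted replicate 4), and Cd22 on the TPM scale, between cultured and resident cells (-0.28, -0.30 and -0.28) and between transplanted and cultured cells (0.74, 0.79 and 0.74). The cause was not tested. DESeq2 called 5 sialyltransferases between transplanted and resident cells (2 higher, 3 lower), against 3 with edgeR. Siglech in culture and Siglecg rest on at most 19 and 14 counts per cultured library, which limits the precision of their fold changes.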

Other observations

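Cd79b, which encodes a signalling chain of the B cell receptor, had 6, 10, 10 and 5 counts in the transplanted libraries, 32, 15 and 30 counts in the cultured libraries and 388, 546, 487 and 575 counts in the resident libraries. The difference between transplanted and resident cells was -5.96 ± 0.22 on the log2 scale (edgeR, adjusted p = 3.31e-07), lower in 4 of 4 transplanted libraries, and larger than that of any Siglec in this comparison. Its partner chain Cd79a had 5 to 7 counts per transplanted and 7 to 8 counts per resident library. Csf3r, the granulocyte colony-stimulating factor receptor gene listed among neutrophil markers, had 943 to 1155 CPM in transplanted and 734 to 826 CPM in resident libraries (0.42 ± 0.08, adjusted p = 0.00617), while the neutrophil genes S100a8 and Mmp8 had 0 to 4 counts in each of these libraries.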
